A study of Mus musculus with 14 samples.

Results

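The comparison is of 24 h of 4-hydroxytamoxifen (4OHT) with no 4OHT in the mouse pre-B cell line BH1-Bcl2-Ik1ER, both in medium with interleukin-7 (IL-7). It takes 4 of the 14 microarrays of the study: the arrays of experiments 1 and 2 at 24 h with IL-7 and 4OHT, and those of experiments 1 and 2 at 24 h with IL-7 and no 4OHT. The arrays were chosen by their titles, and every gene with a probe set of a single symbol was compared, 19938 genes in all, each by its brightest probe set. BH1 is an Ikaros-deficient pre-B line, and all groups carry retroviruses for Bcl2 and for a fusion of Ikaros with the estrogen receptor, with doubly transduced cells sorted by FACS. The group with 4OHT received 100 nM, and both groups grew in medium holding 8% supernatant of a cell line that secretes IL-7. The other groups used below are 24 h with 4OHT and no IL-7, 24 h with neither, 6 h with 4OHT and IL-7, and time 0, with 2 arrays each, 1 per experiment. Cells without the fusion were not measured here, so effects of 4OHT through the fusion and effects of 4OHT on its own cannot be told apart. The labels do not say whether cultures without 4OHT received its solvent.

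Ikaros, encoded by Ikzf1, is a zinc finger protein that binds DNA and is needed for B cell development. It acts at many genes with the Mi-2/NuRD chromatin remodelling complex and is known both to raise and to lower transcription. A fusion to the hormone-binding part of the estrogen receptor is held inactive in the cytoplasm by chaperones, and 4OHT releases it into the nucleus. IL-7 is the growth factor of pro-B and large pre-B cells, whose exit from division goes with loss of the surrogate light chain, opening of the kappa light chain locus and new surface receptors. Bcl2 blocks the mitochondrial death pathway.

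The upstream sequences of the genes with the largest changes give the context of the values below. They are the RefSeq windows (GRCm38.p6) that reach 250 bases before and 50 after the start site, for the 3 largest rises and the 3 largest falls of the named genes, written 5′ to 3′ along the gene's strand, with capitals marking the letters TGGGAA, the core that Ikaros recognises, on either strand (TTCCCA is the same core on the opposite strand).
Cpm (chr10:117629250-117629549, + strand): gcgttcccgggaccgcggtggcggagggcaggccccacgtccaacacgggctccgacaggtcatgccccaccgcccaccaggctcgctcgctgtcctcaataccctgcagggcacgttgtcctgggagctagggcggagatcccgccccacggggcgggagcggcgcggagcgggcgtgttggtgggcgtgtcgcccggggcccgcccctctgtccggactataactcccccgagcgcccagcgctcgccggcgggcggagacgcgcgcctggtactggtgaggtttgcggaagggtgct
Fcrla (chr1:170927534-170927833, - strand): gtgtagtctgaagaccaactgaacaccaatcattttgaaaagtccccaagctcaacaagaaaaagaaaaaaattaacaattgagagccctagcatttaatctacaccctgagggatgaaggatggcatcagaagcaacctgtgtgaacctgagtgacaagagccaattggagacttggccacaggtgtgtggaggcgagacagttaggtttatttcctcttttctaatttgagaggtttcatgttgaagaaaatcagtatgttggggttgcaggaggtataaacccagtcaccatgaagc
Klrb1 (chr6:128723048-128723347, - strand): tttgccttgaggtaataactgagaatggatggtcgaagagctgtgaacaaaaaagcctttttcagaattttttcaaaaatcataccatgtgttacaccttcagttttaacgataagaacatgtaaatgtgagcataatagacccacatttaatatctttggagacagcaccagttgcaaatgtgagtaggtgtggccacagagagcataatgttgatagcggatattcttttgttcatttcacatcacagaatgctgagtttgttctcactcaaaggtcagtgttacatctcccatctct
Igfbp7 (chr5:77407996-77408295, - strand): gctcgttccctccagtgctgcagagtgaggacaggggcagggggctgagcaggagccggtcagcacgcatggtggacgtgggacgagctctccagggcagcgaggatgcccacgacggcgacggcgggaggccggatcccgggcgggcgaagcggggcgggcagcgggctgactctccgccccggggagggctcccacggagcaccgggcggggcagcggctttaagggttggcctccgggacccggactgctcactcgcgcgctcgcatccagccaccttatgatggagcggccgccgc
Rhoj (chr12:75308063-75308362, + strand): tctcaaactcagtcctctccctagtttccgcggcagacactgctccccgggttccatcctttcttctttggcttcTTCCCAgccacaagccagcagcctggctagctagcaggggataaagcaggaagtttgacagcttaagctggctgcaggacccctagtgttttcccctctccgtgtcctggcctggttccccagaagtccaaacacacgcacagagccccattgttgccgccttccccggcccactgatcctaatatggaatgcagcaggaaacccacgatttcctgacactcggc
Dock9 (chr14:121698368-121698667, - strand): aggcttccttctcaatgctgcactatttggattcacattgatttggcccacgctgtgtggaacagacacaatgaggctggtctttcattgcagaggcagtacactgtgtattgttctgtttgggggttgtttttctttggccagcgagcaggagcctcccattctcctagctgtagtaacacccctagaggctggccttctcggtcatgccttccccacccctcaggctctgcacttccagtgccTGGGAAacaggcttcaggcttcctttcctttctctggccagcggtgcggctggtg
The core stood in the windows of Rhoj (first base at position -175 from the start site, on the opposite strand) and Dock9 (position -5, on the gene's strand), and these letters were not in the other 4 windows. Dock9 has 3 start sites in the table, of which the first listed is printed. Among the 14 named falls, all with a window, 7 of 18 windows held the core (38.9%). Among the 14 named rises, 12 of which had a window, 2 of 15 windows held it (13.3%). Of all 32851 windows in the table, 8397 held it (25.6%). Over all genes that passed as lower with 4OHT the share was 26.8% (221 of 826 windows), and over all that passed as higher 20.3% (233 of 1149). Over all genes tested it was 24.1% (4600 of 19116). These shares were not compared by a test, and those of the named genes rest on few windows. The 6-letter core is short, and a match describes the sequence only.

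With 4OHT 1826 of the 19938 genes changed at an adjusted p under 0.05, which is 9.16% of all genes. Of these, 1041 were higher with 4OHT (5.22% of all genes) and 785 were lower (3.94%). The changes were mostly modest: the median log2 difference was 0.49 among the higher genes and -0.50 among the lower ones, and the smallest size that passed was 0.22. At least 2-fold changes were found for 105 higher and 98 lower genes, and at least 4-fold changes for 14 higher and 8 lower genes. Each of the 1826 had one sign in experiments 1 and 2, and in each the 2 arrays with 4OHT lay on one side of the 2 arrays without it. Over all genes, 74.2% had one sign in experiments 1 and 2, and 52.8% had arrays that did not overlap. A fit that takes the experiment as a block called 3324 genes (16.7%), of which 1813 were higher (9.09%) and 1511 lower (7.58%), and these held all of the 1826.

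The split between higher and lower genes depended on the scaling. Of the passing genes 57% were higher with 4OHT, but after a second quantile normalization of the arrays 42.3% were (824 higher and 1125 lower), with a shift of the median of all genes of -0.02 on the log2 scale. The median log2 difference over all genes was -0.04, and it was 0.02 over the 10419 genes above the median level and -0.07 over the 9519 dimmer genes. Without the 4OHT array of experiment 1 the count fell to 847, and without the array of experiment 2 that had no 4OHT it fell to 1006.

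**Figure D1:**
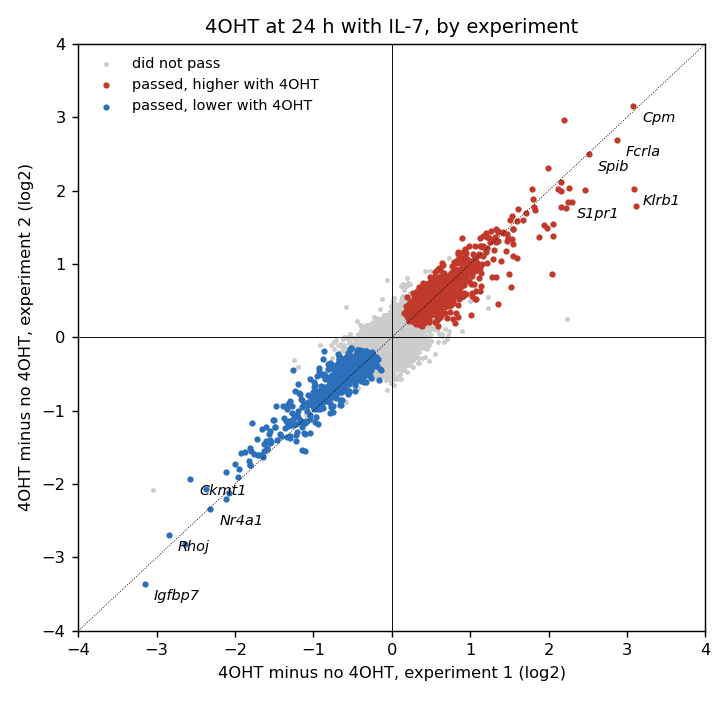
Log2 difference of 4OHT minus no 4OHT at 24 h with IL-7 in experiment 1 (x axis) and experiment 2 (y axis), 1 point per gene. Red points passed and were higher with 4OHT (1041 genes), blue points passed and were lower (785 genes), and grey points did not pass. The dotted line marks equal differences, and all 1826 coloured points lie in the quadrants of equal sign.

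The identity of the cells was checked on their markers. Of 9 B lineage markers measured, 8 lay above the median level of all values (log2 7.33), and their mean level was 11.9 on both arrays with 4OHT, against 11.7 on both arrays without it. Rag1, a subunit of the recombinase that cuts antigen receptor loci, was the exception, with log2 levels of 5.77 and 5.91 with 4OHT against 5.81 and 5.80 without it. The mean level of 11 natural killer cell markers was 5.73 and 5.63 with 4OHT, against 5.64 and 5.65 without it, and that of 13 myeloid markers was 6.47 and 6.50, against 6.49 and 6.62. In limma none of these passed, and neither did any of 7 erythroid and megakaryocyte or 10 stromal markers (1 stromal marker did with the block). At an unadjusted p under 0.05 there were 3 natural killer, 1 myeloid and 5 stromal markers and no erythroid one. Over all genes, 4572 of 19938 had such a p. Of 11 T cell markers Cd3e (log2 -0.29) and Cd5 (-0.35) passed as lower, both lost without the 4OHT array of experiment 1 (adjusted p = 0.37 and 0.13). Ikzf1 itself was measured at 13.09 and 13.10 with 4OHT, against 13.02 and 13.06 without it, and did not pass (adjusted p = 0.67). Which transcript its probe set reads, the fusion or what is left of the cell's own gene, is not given in the sources used here, so this value checks no label.

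The 14 largest rises included surface receptors, an ETS factor and B cell proteins. Cpm, carboxypeptidase M, which trims peptides at the cell surface, had log2 levels of 11.86 and 11.26 with 4OHT, against 8.78 and 8.10 without it. Its arrays with 4OHT were far above those without in each experiment, an 8.68-fold rise (log2 3.12 ± 0.24 SE, adjusted p = 6.5e-06). Fcrla, an intracellular Fc receptor-like protein of B cells, stood at 10.53 and 10.20 with 4OHT, against 7.66 and 7.51 without it. That is a 6.88-fold rise (log2 2.78 ± 0.14 SE, adjusted p = 3.8e-07), with no overlap. Spib, an ETS factor related to PU.1, stood at 12.20 and 12.18 with 4OHT, against 9.68 and 9.69 without it, and the arrays of each group were nearly equal. Its rise was 5.68-fold (log2 2.51 ± 0.10 SE, adjusted p = 6.8e-08).

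Klrb1, a lectin-like receptor best known from natural killer cells, had 9.63 and 8.51 with 4OHT, against 6.54 and 6.48 without it. The arrays did not overlap, but the 2 arrays with 4OHT were further apart than those of the genes above. Its log2 difference of 2.56 ± 0.46 (SE) had an adjusted p of 0.0039, and without the 4OHT array of experiment 1 the adjusted p was 0.062. Of the 6 Klrb1 family genes measured Klrb1 alone passed, and 2 did with the block, Klrb1 and Klrb1c. Klrb1c had a log2 difference of 0.89 (adjusted p = 0.13, 0.016 with the block). Of the 11 natural killer cell markers 2 passed with the block, Klrb1c as higher and the perforin gene Prf1 as lower. These family members are close in sequence, and whether their probes cross-react was not tested.

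S1pr1, the sphingosine-1-phosphate receptor that lets lymphocytes leave tissues, stood at 8.94 and 8.51 with 4OHT, against 6.69 and 6.66 without it (log2 2.05 ± 0.13 SE, adjusted p = 2.1e-06). Cxcr5, the receptor that draws B cells into follicles, stood at 8.65 and 8.04 with 4OHT, against 6.49 and 6.26 without it (log2 1.97 ± 0.17 SE, adjusted p = 1.9e-05). Both inhibitory receptors in the group rose as well: the sialic acid receptor Siglecg by log2 2.07 and the Fc receptor Fcgr2b by log2 1.90. The other named rises were Ifi209 of the interferon-inducible p200 family (log2 2.23), the autophagy regulator Rubcnl (2.15), the nuclear body protein Sp100 (2.15), the membrane trafficking protein Ehd2 (2.14), the Ral exchange factor Ralgps2 (2.08) and the membrane protein Serinc5 (2.08). Fold changes of the 14 rises ran between 3.74 and 8.68. No array with 4OHT overlapped an array without it in any of the 14, which held for all 1826 passing genes, from which they were drawn.

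The 14 largest falls included a small GTPase, an exchange factor, a nuclear receptor and a secreted binding protein. Igfbp7, a secreted binding protein for insulin-like growth factors, had 7.60 and 7.24 with 4OHT, against 10.75 and 10.60 without it. This 9.56-fold fall (log2 -3.26 ± 0.18 SE, adjusted p = 7.5e-07) was the largest among the named genes and took the gene close to the median level. Rhoj, a small GTPase, had 8.14 and 8.12 with 4OHT, against 10.99 and 10.81 without it (log2 -2.77 ± 0.09 SE, adjusted p = 4.0e-08). Dock9, an exchange factor that activates the GTPase Cdc42, had 9.30 and 9.25 with 4OHT, against 11.93 and 12.06 without it (log2 -2.72 ± 0.13 SE, adjusted p = 3.4e-07). Both lay in a narrow band on each pair of arrays. Nr4a1, an orphan nuclear receptor induced by antigen receptor signals, had 8.81 and 8.72 with 4OHT, against 11.12 and 11.06 without it (log2 -2.33 ± 0.11 SE, adjusted p = 3.7e-07).

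The remaining named falls were the mitochondrial creatine kinase Ckmt1 (log2 -2.25), the long non-coding RNA Lncenc1 (-2.21), the sarcomere protein Myom1 (-2.16), the phosphodiesterase-like Smpdl3b (-2.10), the Arp2/3 inhibitor Arpin (-1.98), the T-box factor Tbx19 (-1.93), the antiviral membrane protein Ifitm3 (-1.88), the cytochrome P450 Cyp2j6 (-1.87), the coagulation factor subunit F13a1 (-1.78) and the enolase Eno3 (-1.77). Eno3 and Ifitm3 stayed bright after their fall. Eno3 had 11.42 and 11.43 with 4OHT, against 13.23 and 13.17 without it, and Ifitm3 had 10.63 and 10.91, against 12.59 and 12.71. None of the 14 falls had overlapping arrays, like all 1826 passing genes, and their fold changes ran between 3.42 and 9.56.

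**Figure D2:**
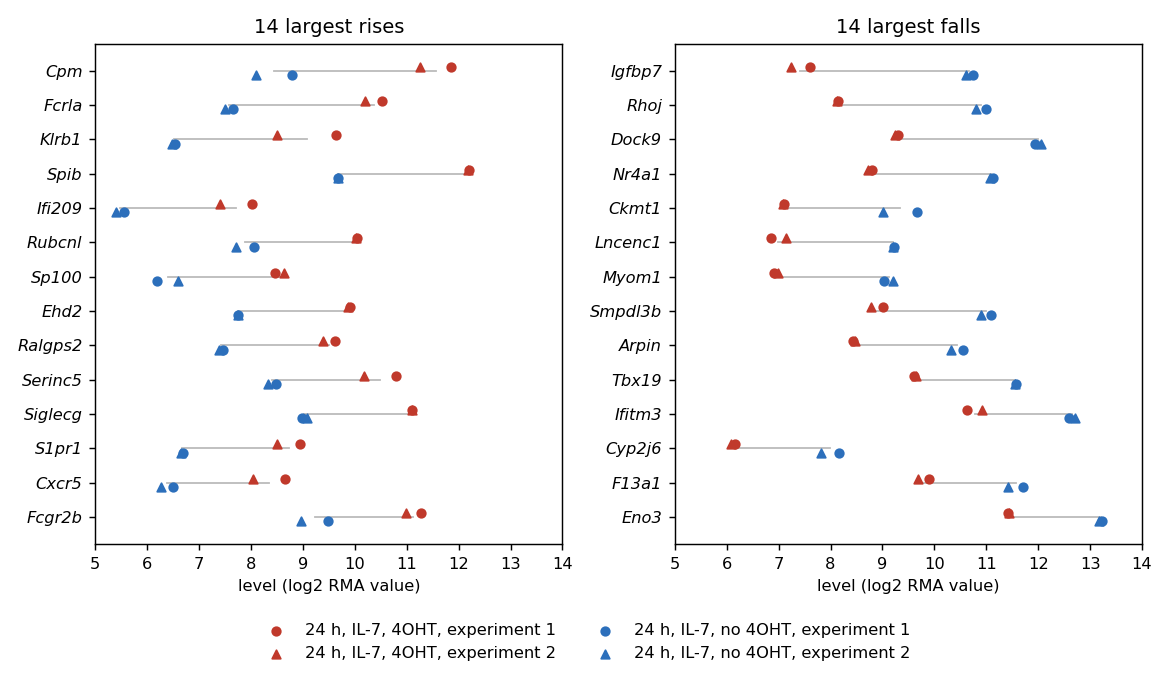
Level (log2 RMA value, x axis) of the 14 named rises (left) and the 14 named falls (right) on each of the 4 arrays, with 4OHT in red above and without 4OHT in blue below, circles for experiment 1 and triangles for experiment 2. Grey lines join the group means. In all 28 genes the red and blue points do not overlap, which holds for all 1826 passing genes (52.8% of all genes have such arrays). The widest spread within a group is that of the Klrb1 arrays with 4OHT at 9.63 and 8.51.

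Counts of list members are set below against the shares of all genes that passed, 5.22% higher and 3.94% lower, or 9.09% and 7.58% with the experiment as a block. Genes above the median level in the brighter group passed more often, 999 as higher and 653 as lower of 10700. Many of the lists hold mostly such genes. Among transcripts of the pre-B receptor chains, those of the signalling subunits rose and those of Vpreb1 and Vpreb2 fell, while Vpreb3 did not pass. Cd79a, which carries the signal of the pre-B and B cell receptors, had 12.58 and 12.53 with 4OHT, against 11.89 and 11.91 without it (log2 0.66 ± 0.09 SE, adjusted p = 0.00051). Its partner Cd79b had 13.47 and 13.44, against 12.91 and 12.98 (log2 0.51). The surrogate light chain gene Vpreb1 had 10.31 and 10.37 with 4OHT, against 10.96 and 10.89 without it (log2 -0.59 ± 0.08 SE, adjusted p = 0.00039), and Vpreb2 had a log2 difference of -0.51. Their partner Igll1 had a log2 difference of -0.18 and did not pass (adjusted p = 0.11). In all, 2 of the 7 chains rose and 2 fell, and the list's median log2 difference was -0.10, against -0.04 over all genes.

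Downstream of the receptor, 8 of 18 measured signalling genes rose and 1 fell, with a median of 0.25. The rising genes were the kinases Syk (log2 0.71), Zap70 (0.97), Btk (0.57), Fyn (0.54), Prkcb (0.88) and Prkcd (0.67), the adaptor Blnk (0.65) and the inhibitory adaptor Dok3 (1.02). Rasgrp3, which activates Ras, fell: it had 9.95 and 10.01 with 4OHT, against 11.51 and 11.42 without it (log2 -1.48 ± 0.11 SE). The call on Btk was lost without the 4OHT array of experiment 1 (adjusted p = 0.071) and without the array of experiment 2 that had no 4OHT (adjusted p = 0.059).

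Of 30 B lineage transcription factors, 12 rose and 4 fell, with a median log2 difference of 0.23. Besides Spib the largest rises were those of Pou2f2, which encodes the octamer factor OCT2 (log2 1.22), the repressor gene Gfi1b (levels below), Foxo1 (0.82), the E protein gene Tcf3 (0.70) and Spi1, which encodes PU.1 (0.70). Gfi1b had 10.99 and 10.71 with 4OHT, against 9.85 and 9.83 without it. Pax5, the factor that holds cells in the B lineage, had 12.42 and 12.35 with 4OHT, against 11.73 and 11.77 without it (log2 0.64 ± 0.11 SE, adjusted p = 0.0021). Foxp1 rose by log2 0.54. The Helios gene Ikzf2, a relative of Ikaros, fell by log2 0.92, and Klf3 fell by 0.51. Ebf1, Ets1, Gfi1 and Id3 passed as higher and Bcl11a and Runx1 as lower, with log2 differences of 0.49 or less in size. The calls on these 6 were lost when single arrays were left out, with adjusted p up to 0.14 for Ebf1 and 0.23 for Gfi1 (both without the array of experiment 2 that had no 4OHT), and up to 0.23 for Ets1, 0.28 for Bcl11a and 0.24 for Runx1 (without the 4OHT array of experiment 1), and 0.13 for Id3 (without the array of experiment 2 that had no 4OHT). Of the co-repressor subunits that Ikaros binds, 2 of 17 rose and 1 fell, which is within about 1 gene of the shares over all genes. These were Chd3, a Mi-2 helicase (log2 0.62), Mbd2 (0.40, adjusted p = 0.087 without the 4OHT array of experiment 1) and Ctbp2 (-0.81).

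Stage markers moved in part. Of 16 pro-B and progenitor markers 3 fell and 1 rose, and with the experiment as a block 6 fell and 1 rose. The falls were those of the sialophorin gene Spn, which encodes CD43 (log2 -0.66), the Wnt pathway factor Lef1 (-0.70) and the Notch target Hes1 (-1.18). Bst1 passed as higher at a low level (log2 0.42, adjusted p = 0.12 without the 4OHT array of experiment 1). Of 18 genes of the Notch pathway Hes1 alone passed (1 rose and 2 fell with the block). Kit, the stem cell factor receptor, was dim, with 6.48 on both arrays with 4OHT, against 6.64 and 6.90 without it, and passed as lower with the block alone. Of 20 markers of small pre-B and later B stages, 6 rose and 2 fell, with a median log2 difference of 0.07. In the brighter group 9 of the 20 lay above the median level. After Fcrla the largest rises were those of Ms4a1, which encodes CD20 (log2 0.69), Cd22 (0.60), the OCT cofactor gene Pou2af1 (0.51) and Cd72 (0.47). Ms4a1 was at a low level, with 5.81 and 5.66 with 4OHT against 4.96 and 5.14 without it. The call on Ms4a1 was lost without the 4OHT array of experiment 1 (log2 0.61 in that fit). That on Cd37 (log2 0.38) was lost whichever of the 4 compared arrays was left out. The interleukin-4 receptor gene Il4ra fell by log2 0.60 and Fcrl1 by 0.44.

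Genes of the kappa light chain locus and of joining differed. Of 8 kappa variable segments measured, 3 rose and none fell. Igkv10-96 had 7.82 and 8.31 with 4OHT, against 5.62 and 5.34 without it (log2 2.58 ± 0.24 SE, adjusted p = 3.5e-05). Igkv9-120 had a log2 difference of 2.00 and Igkv19-93 of 1.34. These segments are close in sequence, and which of them each probe set reads was not tested. Among 14 genes of V(D)J recombination and end joining 4 rose and none fell (in the blocked fit 5 rose and 2 fell): the ligase gene Lig4 (log2 1.40 ± 0.12 SE), the polymerase gene Polm (0.96), Xrcc6 (0.51) and Xrcc4 (0.53, adjusted p = 0.165 without the 4OHT array of experiment 1). Lig4 had 11.27 and 11.06 with 4OHT, against 9.92 and 9.61 without it. Rag1 and Rag2 did not pass and both lay below the median level.

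In the IL-7 and STAT5 list, 1 of 17 measured genes rose and 2 fell, and with the experiment as a block 4 rose and 3 fell. The share of higher genes without the block was near that over all genes (5.22%). The riser was Bcl2l1, which encodes the survival protein BCL-XL: it had 10.10 and 9.63 with 4OHT, against 8.55 and 8.35 without it (log2 1.41 ± 0.16 SE, adjusted p = 0.00013). Cish, a feedback inhibitor induced by STAT5, had 8.78 and 8.57 with 4OHT, against 9.52 and 9.58 without it (log2 -0.88 ± 0.08 SE). Stat5a fell by log2 0.49. The receptor gene Il7r had a log2 difference of -0.04 (adjusted p = 0.81). In the BCL2 family, Bmf (log2 0.69) and Bcl2l11, which encodes BIM (0.30), rose beside Bcl2l1, and the death genes Pmaip1 (-0.47) and Bok (-0.52) fell. The calls on Bcl2l11 (adjusted p = 0.19) and Bok (adjusted p = 0.12) were lost, the first without the array of experiment 2 that had no 4OHT and the second without the 4OHT array of experiment 1.

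Genes of the FoxO list, which holds FoxO factors and their targets, mostly had positive differences. IL-7 signals keep these factors out of the nucleus. Of 20 measured, 18 were positive, 9 rose and 1 fell, with a median log2 difference of 0.37, against -0.04 over all genes. All 20 lay above the median level in the brighter group. Over genes above the median level the median log2 difference was 0.02. S1pr1 was the largest, followed by the stress gene Gadd45a (log2 0.83), Foxo1 (0.82), the sestrins Sesn3 (0.79) and Sesn1 (0.78), the inhibitor of cyclin-dependent kinases Cdkn1b (0.69), Txnip (0.63), Ccng2 (0.55) and Bcl2l11. Trib1, a pseudokinase, fell by log2 0.64. The calls on Gadd45a (adjusted p = 0.12) and Ccng2 (adjusted p = 0.081) were lost without the 4OHT array of experiment 1. Of 14 p53 targets 6 rose and none fell (7 and 1 with the experiment as a block), but 2 of the 6, Sesn1 and Gadd45a, are also in the FoxO list. The antiproliferative gene Btg2 rose by log2 0.75. The calls on Mdm2 (log2 0.32), Trp53inp1 (0.40) and Ccng1 (0.24) were lost when single arrays were left out (adjusted p up to 0.19, 0.069 and 0.26, Mdm2 and Ccng1 without the 4OHT array of experiment 1 and Trp53inp1 without the array of experiment 2 that had no 4OHT).

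Among genes of growth and division 7 of 108 passed (6.48%), against 9.16% of all genes, and with the block 11 passed (10.2%), against 16.7% of all genes. Nearly all of the 108 lay above the median level, where 1652 of 10700 genes passed without the block. None of 20 ribosome biogenesis genes passed in limma (range of log2 differences -0.25 to 0.09). An unadjusted p under 0.05 was found for 3 of them, all lower, against 4572 of all 19938 genes in either direction. None of 30 DNA replication genes passed (range -0.36 to 0.12), with 1 at an unadjusted p under 0.05 and 1 lower with the experiment as a block. Of 16 D-type cyclins, kinases and E2F genes, E2f2 rose by log2 1.04 (adjusted p = 0.057 without the 4OHT array of experiment 1) and Ccnd1 fell by 0.49. With the experiment as a block Ccnd2 passed as lower too (log2 -0.52, adjusted p = 0.0012, against 0.12 without the block). Among 9 inhibitors of cyclin-dependent kinases and pocket proteins, Cdkn1b and the retinoblastoma gene Rb1 (0.66) rose. Of 23 genes of G2/M and mitosis, Cdc25b alone passed (log2 0.70, adjusted p = 0.10 without the array of experiment 2 that had no 4OHT). Myc had 12.63 and 12.66 with 4OHT, against 12.88 and 12.86 without it. The groups did not overlap, but the log2 difference of -0.23 (95% interval -0.459 to 0.001) did not pass (adjusted p = 0.22). The MAX partners Mxd1 (log2 0.61) and Mxd4 (0.46, adjusted p = 0.10 without the 4OHT array of experiment 1) rose.

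Adhesion and migration genes moved in both directions. Of 26 integrins and adhesion genes 3 rose and 6 fell. The integrin gene Itga5, a fibronectin receptor chain, had 8.84 and 8.63 with 4OHT, against 10.16 and 9.84 without it (log2 -1.27 ± 0.11 SE). The tetraspanin Cd9 (-1.13), the catenin Ctnnd1 (-1.05), the common beta chain Itgb1 (-0.52) and vinculin, Vcl (-0.51), fell as well, and Itgb3 passed with a log2 difference of -0.34 (adjusted p = 0.31 without the 4OHT array of experiment 1). Itga4, the chain that binds VCAM1, rose by 0.83, the kinase gene Ptk2b by 0.65 and Itgb2 by 0.72 (adjusted p = 0.053 without the array of experiment 1 that had no 4OHT). Of 14 chemokine and migration receptors, S1pr1, Cxcr5 and S1pr4 (0.62) rose, and Ccr2 (-1.67) and S1pr3 (-0.43, adjusted p = 0.053 without the 4OHT array of experiment 2) fell. Cxcr4, the receptor that holds B precursors in the marrow, had a log2 difference of 0.22 (adjusted p = 0.22).

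Of 23 immediate early genes 7 fell and 2 rose. Beside Nr4a1 the falls were those of the ERK phosphatase Dusp6 (log2 -1.09), Ier2 (-0.60), Nr4a2 (-0.53), Ier3 (-0.49), the receptor signalling inhibitor Spry2 (-0.40) and Nr4a3 (-0.37), and the rises those of Jund (0.82) and Klf6 (0.39). Calls were lost without the 4OHT array of experiment 1 for Nr4a2 (log2 -0.52 in that fit), Ier3 (-0.33) and Klf6 (0.32). Without that of experiment 2 the call on Spry2 was lost (-0.29). The call on Nr4a3 was lost whichever of the 4 compared arrays was left out. In the NF-kappaB list 5 of 14 genes rose and 1 fell: the inhibitor Nfkbia (log2 1.01), the subunit Rel (0.85), Nfkbie (0.49), Birc3 (0.47) and Tnip1 (0.33) were higher, and the feedback enzyme Tnfaip3 was lower (-0.87). The calls on Nfkbie (log2 0.41 in that fit) and Birc3 (0.35) were lost without the 4OHT array of experiment 1. That on Tnip1 was lost whichever of the 4 compared arrays was left out.

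Among interferon response genes, 1 of 23 rose and 3 fell, against 5.22% and 3.94% of all genes (2 and 5 with the experiment as a block, against 9.09% and 7.58%). The share that rose was thus near that over all genes. Irf1 rose by log2 1.30, and the guanylate-binding protein genes Gbp11 (-1.33) and Gbp8 (-1.32) and the RNA sensor Ifih1 (-0.79) fell. Of 8 genes of MHC class II presentation, both chains of the peptide loading modulator DO rose, H2-Oa by log2 1.06 and H2-Ob by 1.42. H2-Ob had 12.49 and 12.24 with 4OHT, against 11.01 and 10.88 without it. The other 6 did not pass, and 3 of the 8 lay above the median level. In glycolysis 3 of 17 genes fell and none rose (5 fell and 1 rose with the experiment as a block): Pdk1 (-0.62), Aldoa (-0.50) and Aldoc (-0.48), with adjusted p of 0.098 for Aldoa and 0.12 for Aldoc without the array of experiment 1 that had no 4OHT. None of 22 genes of cholesterol and fatty acid synthesis passed in limma, and 1 had an unadjusted p under 0.05, against 4572 of all 19938 genes. The plasma cell list had 2 rises in 8 genes, the chaperone Mzb1 (log2 1.31) and Derl3 (0.53), and 1 fall, Sdc1 (-0.40). The calls on Derl3 (adjusted p = 0.15) and Sdc1 (0.26) were lost without the array of experiment 2 that had no 4OHT.

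Genes known as estrogen receptor targets were listed because 4OHT is a ligand of that receptor. Of 14 measured, none rose and 3 fell, with a median of -0.17: Igfbp4 (log2 -0.91), Esr1 itself (-0.50, adjusted p = 0.13 without the 4OHT array of experiment 1) and Ccnd1. Whether the Esr1 probes read the fusion transcript is not given in the sources used here. The part of the cell's own receptor in these values was not tested.

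**Figure D3:**
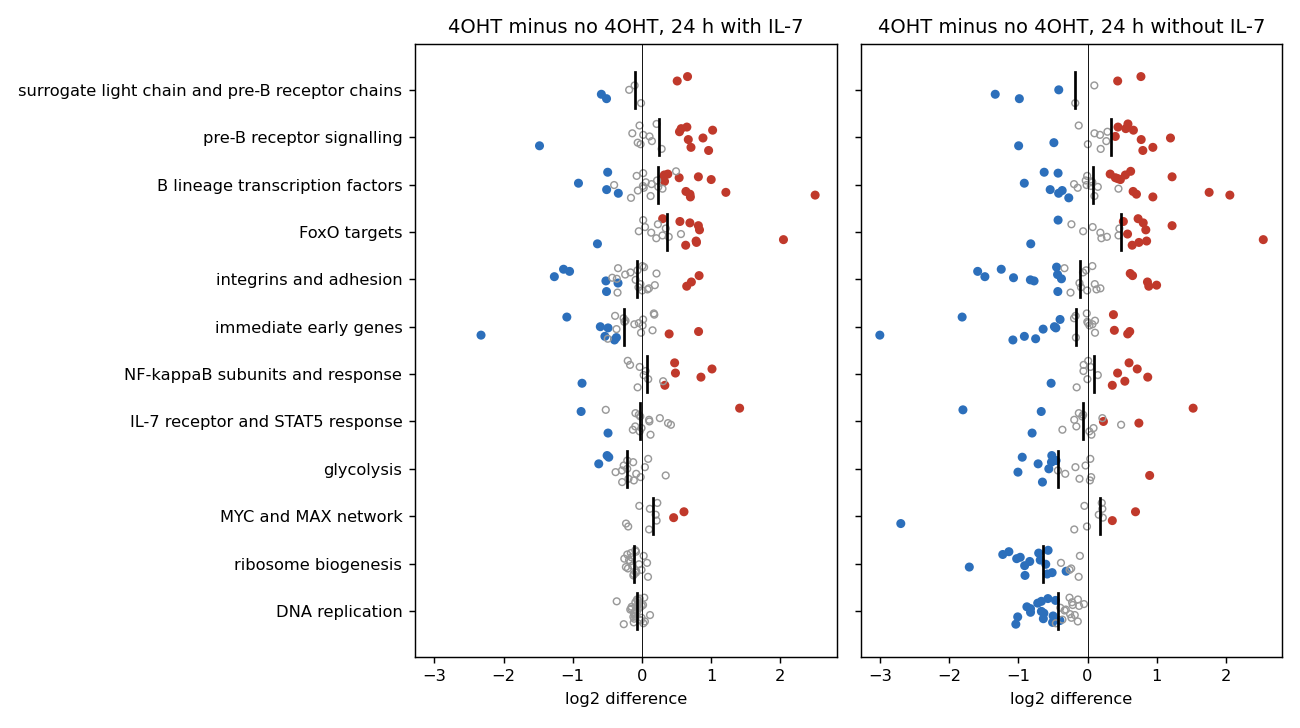
Log2 difference of 4OHT minus no 4OHT for the members of 12 gene lists at 24 h with IL-7 (left) and without IL-7 (right), 1 point per gene. Filled points passed (red higher, blue lower), open circles did not, and black lines mark list medians. Ribosome biogenesis and DNA replication have no filled point with IL-7, and 15 blue points each without it.

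The same treatment without IL-7 was measured on other arrays. There 3045 genes passed (15.3%), 1416 higher (7.10%) and 1629 lower (8.17%). Of the 1041 genes raised with IL-7, 842 also rose without it, which is 80.9% of the genes raised with IL-7 and 59.5% of those raised without it. Of the 785 lowered genes, 600 also fell without IL-7, which is 76.4% of those lowered with IL-7 and 36.8% of those lowered without it. The arrays of both comparisons share no sample, but each gene's spread comes from 1 fit and is common to both tests. The sign without IL-7 was the same for 98.6% of the raised and 93.6% of the lowered genes, and 54.4% of all genes had a positive difference without IL-7. The raised genes had a median log2 difference of 0.49 without IL-7, and the lowered genes of -0.63. Of the 14 named rises 13 rose without IL-7 too, Cxcr5 being the exception, and all 14 named falls fell.

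The difference between both effects was tested directly, as the effect of 4OHT with IL-7 minus that without. It passed for 137 genes (0.687%), 123 positive (0.617%) and 14 negative (0.0702%), and for 449 genes (2.25%) with the experiment as a block. At an unadjusted p under 0.05 there were 1826 genes, which by coincidence equals the count of genes changed with IL-7. Of the 137 genes 69 also changed with IL-7, and 54 of those had fallen with IL-7 and had a positive difference. The other 68 passed without IL-7 and not with it. Leaving out single arrays gave counts between 50 and 96, the lowest without the array of experiment 2 that had IL-7 and no 4OHT.

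Myc had the largest difference of the list members. With IL-7 its log2 difference was -0.23, whereas in medium without IL-7 it had 9.31 and 9.43 with 4OHT, against 12.10 and 12.05 without it (log2 -2.70). The difference of 2.47 ± 0.15 (SE) had an adjusted p of 3.1e-05 and passed in all 8 fits that left out 1 array. Polr1b, a subunit of RNA polymerase I, had 10.82 and 10.84 with 4OHT, against 11.04 and 11.08 without it, in medium with IL-7. Without IL-7 it had 8.38 and 8.34 with 4OHT, against 10.09 and 10.06 without it (difference of both effects 1.48, adjusted p = 0.00083). Among ribosome biogenesis genes 15 of 20 fell without IL-7, and 4 passed the test of the difference: Polr1b, Gnl3 (1.02), Nolc1 (0.82) and Polr1a (0.77). The calls on Nolc1 (adjusted p = 0.15 without the array of experiment 2 that had IL-7 and no 4OHT) and Polr1a (0.081 without the array of experiment 2 that had neither) were not stable to leaving out 1 array. DNA replication genes fell in 15 of 30 cases without IL-7, with no gene passing the test of the difference.

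Nrp2, a co-receptor of semaphorins, fell in both media, but by less with IL-7. It had 8.89 and 8.76 with 4OHT, against 10.06 and 9.91 without it, in medium with IL-7, and 7.92 and 7.90, against 10.70 and 10.76, in medium without IL-7. The difference of both effects was 1.66 ± 0.11 (SE, adjusted p = 4.6e-05). The inflammasome gene Nlrp3 (1.43), the Rac exchange factor Dock1 (1.33) and Tbx19 (0.94) behaved the same way and passed each time 1 array was left out. Nlrp3 had mean levels with 4OHT of 5.94 with IL-7 and 5.84 without it, against 7.49 and 8.82 without 4OHT. Its level thus differed between the media mainly without 4OHT. Gbp11 (1.35) and Pdcd1, which encodes PD-1 (1.43), also fell less with IL-7. With 4OHT Gbp11 was lower with IL-7 (mean 6.99) than without it (7.79). Without 4OHT it had 8.32 and 10.46, and its mean at time 0 was 10.28. Pdcd1 had means of 9.11 and 7.72 with 4OHT, against 9.86 and 9.89 without 4OHT. The difference of Gbp11 passed in 3 of the 8 fits that left out 1 array, and that of Pdcd1 in none. The call on the fall of Pdcd1 with IL-7 (log2 -0.75) was lost whichever of the 4 compared arrays was left out.

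Cxcr5 rose with IL-7 and had 5.80 and 6.17 with 4OHT, against 5.46 and 5.51 without it, in medium without IL-7 (adjusted p = 0.079). The difference of both effects was 1.47 (adjusted p = 0.017), and it passed in only 4 of the 8 fits that left out 1 array. Nuggc, a nuclear GTPase of germinal centre B cells, rose by log2 1.06 with IL-7 and by 2.29 without it (difference -1.23, adjusted p = 0.0012). Genes that passed in both media with opposite signs were 4 in number: Cd248, Fcrl1, Sit1 and Tbc1d32. Fcrl1, an Fc receptor-like protein of B cells, had 9.96 and 9.82 with 4OHT, against 10.43 and 10.23 without it, in medium with IL-7, and 10.22 and 10.20, against 9.80 and 9.77, in medium without IL-7. Its difference of -0.87 had an adjusted p of 0.095 without the array of experiment 2 that had neither. Its fall with IL-7 had an adjusted p of 0.10 without the 4OHT array of experiment 2. Cd248, endosialin, fell by log2 0.44 with IL-7 and rose by 0.68 without it. The call on its fall was lost whichever of the 4 compared arrays was left out (log2 -0.39 to -0.48).

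**Figure D4:**
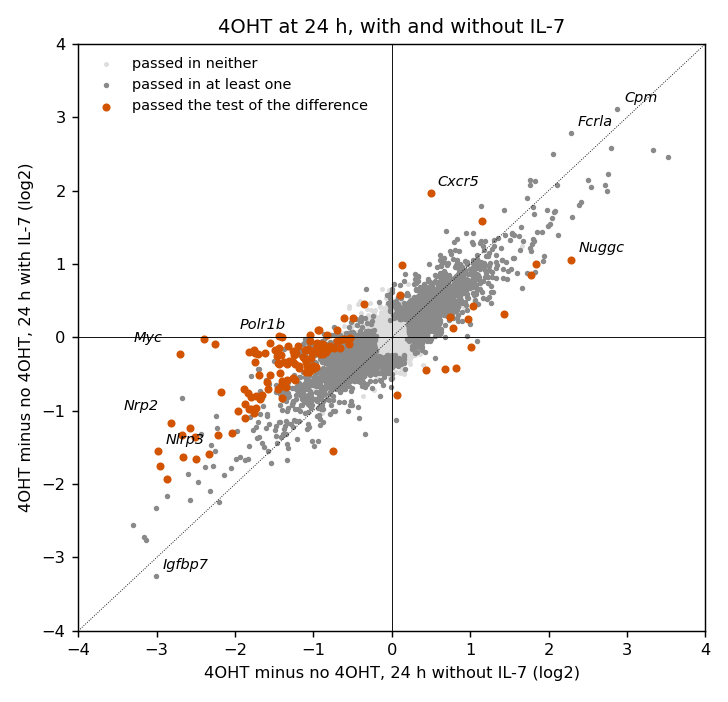
Log2 difference of 4OHT minus no 4OHT at 24 h without IL-7 (x axis) and with IL-7 (y axis), 1 point per gene. Orange points (137 genes) passed the test of the difference between both effects, dark grey points passed in at least 1 medium and light grey points in neither. Most orange points lie above the dotted line of equal differences, to the left, among them Myc at -0.23 with IL-7 and -2.70 without it.

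At 6 h of 4OHT with IL-7, set against time 0, no culture without 4OHT was measured here, so 6 h in culture and 6 h of 4OHT cannot be told apart, and the differences carry no test. They share no array with the comparison at 24 h. Of the 785 lowered genes 666 (84.7%) were lower at 6 h, with a median of -0.39, and of the 1041 raised genes 746 (71.7%) were higher, with a median of 0.12. Of all genes 44.2% were higher at 6 h, with a median of -0.02. Among the named genes, all 14 falls and all 14 rises had their later sign at 6 h. Differences of at least 2-fold were found for 11 of the falls and 4 of the rises, and the medians were -1.45 and 0.54.

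Rhoj had 9.13 and 9.22 at 6 h, against 11.25 and 11.21 at time 0. Nr4a1 had 9.57 and 9.71 at 6 h, against 11.74 and 12.03 at time 0. Both were thus far lower on both arrays at 6 h than at time 0, with no overlap. Cxcr5 had 8.43 and 8.62 at 6 h, against 5.48 and 5.63 at time 0, and of the 14 rises it had the largest difference at 6 h (log2 2.97). Fcrla (1.38), Ehd2 (1.36) and Klrb1 (1.01) were the other rises with a difference of at least 2-fold at 6 h. Cpm had 10.06 and 9.63 at 6 h, against 9.63 and 9.86 at time 0, and the groups overlapped. Cultures of 24 h with IL-7 and no 4OHT had moved relative to time 0 too, with a median log2 difference of -0.20 over the raised genes and -0.06 over the lowered genes. For Cpm this difference was -1.30 and for Spib -0.59. These values share the arrays without 4OHT with the main comparison.

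**Figure D5:**
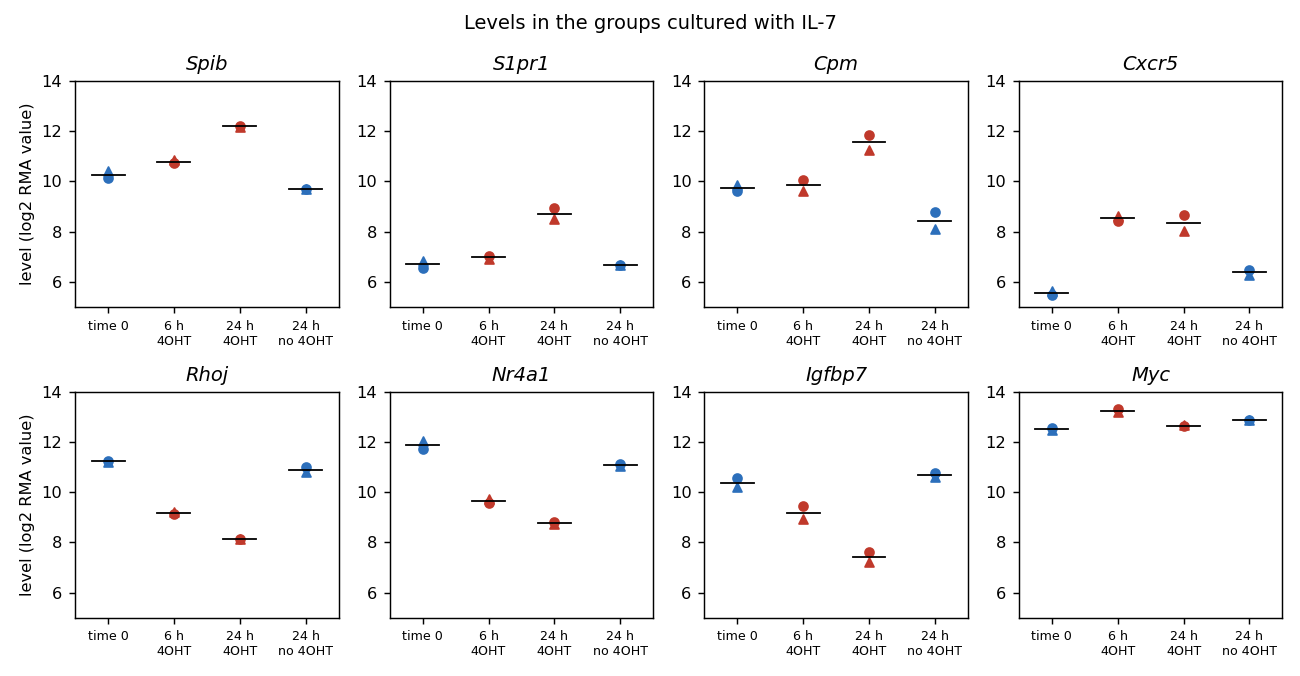
Level (log2 RMA value) of 8 genes at time 0, at 6 h with 4OHT, at 24 h with 4OHT and at 24 h without 4OHT, all with IL-7. Red marks 4OHT and blue no 4OHT, circles are experiment 1 and triangles experiment 2, and black lines are means of 2 arrays. Rhoj and Nr4a1 are already low at 6 h, Cxcr5 is already high at 6 h, and Cpm and S1pr1 are highest at 24 h with 4OHT.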

How the data were processed

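RNA of 14 cultures (7 groups, 2 independent experiments of 1 cell line) was hybridised to 1 microarray each, per the labels' protocols. The authors deposited log2 values of 35556 probe sets, made with Affymetrix Expression Console 1.1 and RMA, per the submitters' processing notes. RMA corrects background, equalises array distributions and summarises probes, and differences are therefore relative to most other genes. The medians of the deposited arrays were still not equal and ran from 7.23 to 7.43. With 4OHT and IL-7 at 24 h they were 7.25 and 7.32 in experiments 1 and 2, against 7.23 and 7.33 without 4OHT. Neither the genome build nor scanner intensities were at hand. The number of arrays limits the precision.

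Probe sets with 1 symbol (21789) gave 19938 genes, the brightest standing for each of the 999 genes with several, and 1621 with several symbols and 12146 unlisted ones were left out. Differences were fitted with limma 3.58.1 in R 4.3.3 (lmFit, eBayes, two-sided) with 1 mean for each of 7 groups and all 14 arrays (7 residual and 4.83 prior degrees of freedom). P-values of the 19938 genes were adjusted after Benjamini and Hochberg, with 0.05 as the threshold for passing. They measure the spread between the 2 experiments of this line.

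The experiment numbers pair the arrays, since the labels call the experiments independent: deviations of same-numbered arrays correlated in all 21 pairs of groups (0.124 to 0.631, 0.514 for the compared groups). No block was used unless stated. Alternatives were the block, only the compared arrays, renewed quantile normalization, no dim genes, every probe set, a trended robust eBayes and each array left out.

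Named genes are the 14 largest rises and 14 largest falls among passing genes with 1 direction in both experiments and a level above the median (log2 7.33) in the brighter group (predicted genes, olfactory receptors and variable segments of immunoglobulins left out); members of the gene lists; and the 6 largest differences by IL-7 in each direction among genes that also passed with IL-7. The kappa segments, the Klrb1 family and the 4 genes of opposite sign were chosen after their values were seen. The comparison and the lists were chosen with earlier results of these data known.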

Additional observations from a re-analysis of the deposited data

Results flagged for a closer look

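For 24 genes of the report the effect of 4OHT at 24 h with IL-7 differed from that without IL-7 by the test of the difference itself. The log2 value given is the effect with IL-7 minus the effect without it. Positive differences for genes that fell without IL-7 were found for Myc (2.47), Nrp2 (1.66), Polr1b (1.48), Nlrp3 (1.43), Pdcd1 (1.43), Gbp11 (1.35), Dock1 (1.33), Gnl3 (1.02), Igfbp4 (0.96), Tbx19 (0.94), Ccnd1 (0.93), Tbc1d32 (0.88), Nolc1 (0.82), Sit1 (0.82), Polr1a (0.77), Vpreb1 (0.75) and Spry2 (0.68). Cxcr5 (1.47) rose with IL-7 and did not pass without it. Negative differences were found for Nuggc (-1.23), Cd248 (-1.12), Zfp831 (-0.92), Fcrl1 (-0.87), Slfn9 (-0.85) and Tram2 (-0.85). Nuggc, Zfp831 and Tram2 rose in both media and by more without IL-7. Slfn9 fell by log2 0.79 with IL-7 and had a difference of 0.06 without it (adjusted p = 0.86).

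Of the 24 genes, 11 passed in each of the 8 fits that left out 1 array: Ccnd1, Dock1, Gnl3, Igfbp4, Myc, Nlrp3, Nrp2, Nuggc, Polr1b, Tbc1d32 and Tbx19. Nolc1, Pdcd1 and Zfp831 passed in none of them, with adjusted p up to 0.15, 0.17 and 0.21. Slfn9 reached 0.21 without the 4OHT array of experiment 1 with IL-7. Vpreb1 reached at most 0.051, without the array of experiment 2 that had neither IL-7 nor 4OHT, and Cd248 at most 0.059, without the array of experiment 2 that had IL-7 and no 4OHT. Sit1 passed in 1 of the 8 fits and reached 0.15 without that array.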

How the results depend on the processing

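The count of 1826 genes at 24 h with IL-7 was 3324 with the experiment as a replicate block and lay between 847 and 1700 when 1 array was left out, and the count of the difference by IL-7 was 449 with the block, against 137, and between 50 and 96 with 1 array left out. Without IL-7 the 3045 genes became 1841 to 2282 with 1 array left out. On the compared arrays alone 1322 genes passed with IL-7, and the other settings gave 1792 to 1949. The block ended no call among the 1826. Of 39 named genes that passed with IL-7, all kept their call under every setting other than the compared arrays alone (38) and the leaving out of single arrays (36 to 37). Of the other 110 passing list members, 90 kept it on the compared arrays alone and 73 to 96 with 1 array left out, in fits with fewer arrays. Hk1 of the glycolysis list turned from a log2 difference of 0.09, which did not pass, to -0.62 (adjusted p = 0.0025) when its probe set with the lowest p stood for the gene, and the cause was not tested. Scanner intensities were not used, so signal over background is unknown for dim genes, of which 69 passed as higher and 165 as lower.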

Other observations

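Probe sets outside the gene comparison changed as well. Of 12146 probe sets without a listed gene, 328 passed at 24 h with IL-7 (2.7%), 270 higher with 4OHT and 58 lower. Of 1621 probe sets with several symbols, 63 passed (3.89%), 48 higher and 15 lower.

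Slc7a11, the cystine transporter, was chosen after its values were seen. It had 7.11 and 6.37 with 4OHT, against 10.15 and 8.45 without it, a log2 difference of -2.56 (95% interval -4.27 to -0.85) that did not pass (adjusted p = 0.065). The arrays of each group lay far apart, with experiment 1 higher in both groups. This fit had no block, so an offset shared by the arrays of an experiment counts toward its spread. Without IL-7 its log2 difference was -3.30 (adjusted p = 0.012).

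The receptor of the survival factor BAFF, Tnfrsf13c, was likewise chosen after its values were seen. It had 10.67 and 10.59 with 4OHT, against 9.51 and 9.20 without it, with no overlap (log2 1.27 ± 0.13 SE, adjusted p = 6.4e-05), and rose by log2 1.78 without IL-7.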
